A study of Mus musculus with 62 samples.

Results

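A module of 48 genes of G2 and mitosis was described gene by gene in single cultured KPC1199-EGFP cells. The genes were taken by symbol from a list of such genes, with no threshold on their values. The list was chosen with earlier results of these data known. All 48 had a row among the 19112 gene rows of the count table. KPC1199-EGFP is a mouse pancreatic cancer line of C57BL/6 background that carries EGFP. The cells were untreated adherent cells at passage 9, trypsinised, captured and amplified on a Fluidigm C1 chip, with 1 library from each of 62 cells of 1 culture. The levels below come from the 50 libraries in which ERCC spike-ins, synthetic RNAs added to each reaction, took under 20% of all counts. There is 1 group, and cells of 1 culture are not replicates of a condition, so no test was made and every value is a description of these cells.

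A cell that has copied its DNA passes through G2 and divides its chromosomes in mitosis. Cyclin-dependent kinase 1 with its cyclin starts the process, the Aurora and Polo kinases drive centrosomes and spindle, kinetochores tie chromosomes to microtubules, and the anaphase-promoting complex ends it by marking proteins for destruction. Many of these genes are transcribed in waves that peak late in the cycle. Their promoters often carry the cell cycle homology region, a short element bound by the DREAM and MuvB complexes, together with CCAAT boxes bound by NF-Y. In a culture that is not synchronised, single cells are caught at different points of the cycle.

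The promoter letters are shown first, and whether they have a part in the levels of the genes was not tested. RefSeq windows of 300 bases (250 before to 50 after a start, build GRCm38.p6) were found for 42 of the 48 genes. The letters TTTGAA or TTCGAA, searched on both strands as the cell cycle homology letters, were in the window of 34 of the 42 (81.0%), against 21.7% of 27025 genes with a window. Within 50 bases of the start they were found for 28 of the 42 (66.7%), against 6.12% of all genes. CCAAT, also on both strands, was in 33 of the 42 windows (78.6%), against 41.1% of all genes. A match is a description of letters and was not tied to binding of any factor. The windows below run from base -150, counted from the start, to the last homology letters upstream of it, 5′ to 3′ on the gene's strand, and capitals mark the homology letters and CCAAT on either strand. The first 4 genes were split, that is off in some cells and on in others, and Hmgb2 was on in every cell.
Psrc1 (chr3:108383688-108383813, plus strand): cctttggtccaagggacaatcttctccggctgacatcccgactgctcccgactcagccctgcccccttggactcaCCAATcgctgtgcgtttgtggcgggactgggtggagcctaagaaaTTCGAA
Kif2c (chr4:117178870-117178922, minus strand): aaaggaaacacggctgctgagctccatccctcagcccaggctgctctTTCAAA
Kif11 (chr19:37376232-37376368, plus strand): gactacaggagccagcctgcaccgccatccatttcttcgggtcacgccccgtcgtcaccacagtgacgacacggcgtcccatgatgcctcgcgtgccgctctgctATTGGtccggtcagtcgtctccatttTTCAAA
Ckap2l (chr2:129297237-129297362, minus strand): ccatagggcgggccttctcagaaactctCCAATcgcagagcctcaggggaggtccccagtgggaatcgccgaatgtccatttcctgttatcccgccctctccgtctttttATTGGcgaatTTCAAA
Hmgb2 (chr8:57511693-57511818, plus strand): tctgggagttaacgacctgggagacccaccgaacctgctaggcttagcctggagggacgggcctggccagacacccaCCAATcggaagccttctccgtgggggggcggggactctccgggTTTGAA

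In Psrc1 (at its second listed start), Ckap2l and Hmgb2 the homology letters began 30 bases before the start, in Kif11 19 and in Kif2c 103. The homology letters were in 7 of 10 windows of split genes, in 24 of 29 of the broadly expressed genes and in 3 of 3 of the steady ones, classes that are defined below. Thus the letters were found in all 3 classes. For Tmpo the match lay at the second of its listed starts, and Cks1b matched but its window is not printed. The 8 genes with a window but without these letters were Gtse1, Nek2, Nuf2, Nusap1, Cenpe, Tacc3, Birc5 and Cks2.

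Levels are given as CPM, a gene's count over all gene counts of its library on a common scale, or as log2(CPM + 1). A gene was called on in a library at 10 CPM or more and off under 1 CPM. Gene counts per library ran from 2153900 to 12868800, with a median of 7194660, so 10 CPM corresponded to between 21.5 and 129 counts. A gene was called split if at least 20% of the 50 libraries were off, at least 20% were on and at most 20% lay between. It was called steady if it was on in all 50 with an SD under 1 on the log2 scale. A gene with under 20% of libraries off that was not steady was called broad, and the rest sparse. CPM is not scaled by transcript length, so levels are not ranked between genes, and a given CPM threshold asks for fewer molecules of a long transcript than of a short one.

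Of the 48 genes, 13 were split, 3 were steady, 32 were broad and 0 were sparse. As a share, 27.1% of the genes were split, against 29.8% of the 12012 genes above 0 in at least 10 of the libraries and 25% of the 6496 with a mean level within the range of the module. The share of split genes was thus near the background. Steady genes made up 6.25%, against 10.5% of all tested genes and 18% in the same range of levels. Broad genes made up 66.7%, against 30% and 54.2%, and sparse genes were 29.7% and 2.77% of the backgrounds. The median SD of the 48 genes was 2.47 on the log2 scale, against 1.83 over all tested genes and 1.91 over those in the same range of levels. In 33 of the 48 genes there was an empty interval of more than 1 log2 unit with at least 5 libraries on each side, which is 68.8% of them, against 39.1% of all tested genes and 39.8% of those in the same range of levels. All 13 split genes had one, and the split rule itself favours such an interval: 70.7% of all split genes had one. Near the limit of 10 libraries off, Ckap2l was just inside the split class with 10, and Nusap1 and Anln with 9 and Aurka and Ncapd2 with 8 were just outside.

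**Figure D1:**
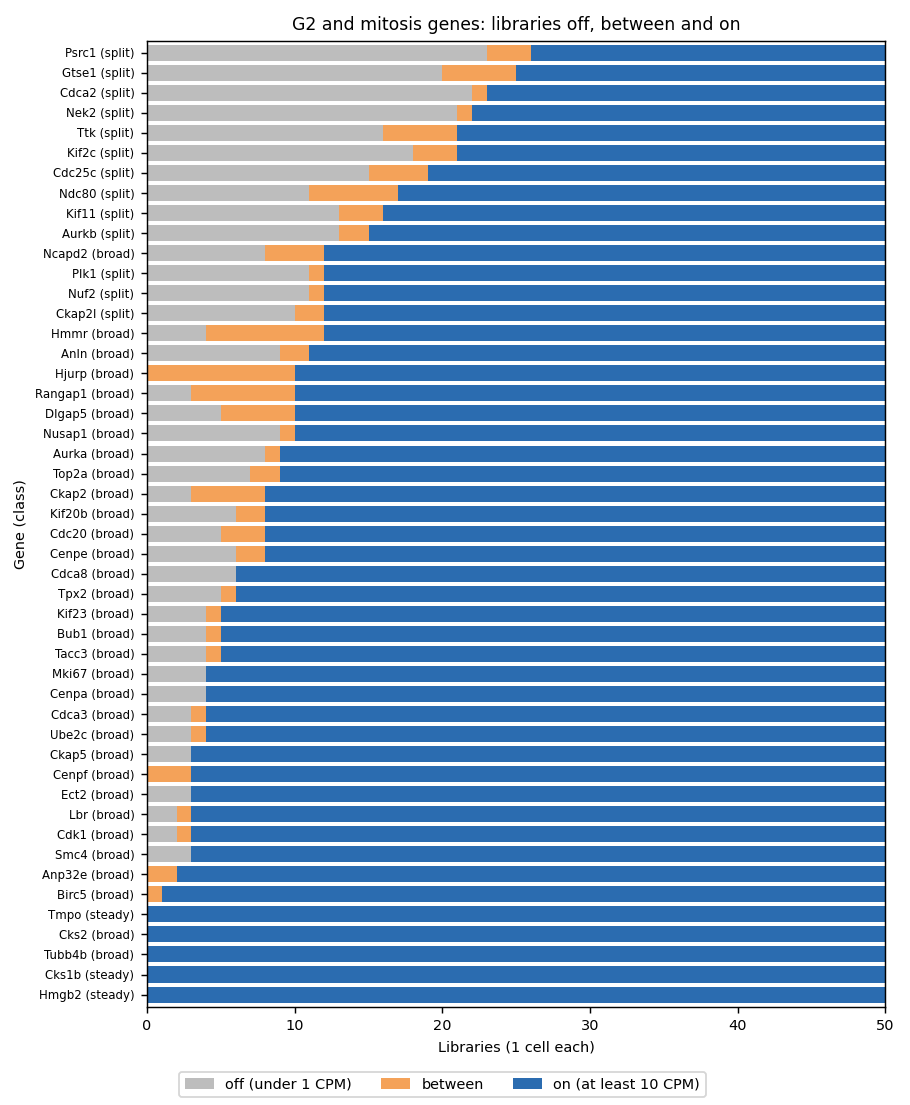
Number of the 50 libraries (x axis) in which each gene (y axis, with its class) was off (grey, under 1 CPM), between (orange) or on (blue, at least 10 CPM). From Psrc1, on in 24 libraries, the blue bars lengthen to the 5 genes at the bottom that were on in all 50.

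The kinases and their partners held the widest contrast. Aurkb, the Aurora kinase of the chromosomal passenger complex, was off in 13 libraries and on in 35, with a lowest value of 0 CPM, a median of 107 and a highest of 637. No library lay between 0 and 2.37 on its log2 scale, and its SD of 3.46 was the largest of the 48. Plk1, the Polo kinase, was off in 11 and on in 38 libraries (median 50.7, highest 517 CPM), with no library between 0.18 and 2.87 on the log2 scale. For both genes the libraries fell into an off set and an on set with few between.

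Aurka, the centrosomal Aurora kinase, was off in 8 and on in 41 libraries (median 115, highest 878 CPM). The Aurora genes were both on in 33 libraries and both below 10 CPM in 7, Aurka alone was on in 8 and Aurkb alone in 2. Ttk, the Mps1 kinase of the spindle checkpoint, was on in 29 libraries and off in 16, with a median of 27.9 CPM. Bub1, a checkpoint kinase at the kinetochore, was on in 45 (median 164 CPM). Thus 28 of the 29 libraries with Ttk on also had Bub1 on (90% of all 50 did), whereas 17 had Bub1 without Ttk.

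Nek2, a centrosomal kinase, was on in 28 libraries and off in 21, with 1 library between (median 19.9, highest 138 CPM). Cdc25c, a phosphatase that activates Cdk1, was on in 31 and off in 15 (median 32.2, highest 186 CPM). Cdk1 itself was on in 47, off in 2 and between in 1 (median 256, highest 911 CPM). Each of the 31 libraries with Cdc25c on had Cdk1 on, as did 94% of all 50. The small Cdk-binding subunits differed from the kinases, being on everywhere.

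Cks1b ran from 94.5 to 1769 CPM with a median of 969, and its SD was 0.76. Cks2 ran from 16.7 to 728 CPM with a median of 192 and an SD of 1.30, so it was on in all 50 libraries yet was not steady. In libraries 19, 17 and 60, the 3 without Cdk1 on, Cks1b stood at 652, 94.5 and 850 CPM. Cks2 stood there at 39.1, 184 and 54.6 CPM.

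Among the chromosomal passenger partners, Birc5 (survivin) was on in 49 libraries and Cdca8 (borealin) in 44. Birc5 ran from 1.08 to 1336 CPM with a median of 521. Cdca8 was off in 6 libraries and on in all others, with no library between 0 and 3.48 on the log2 scale. All 35 libraries with Aurkb on had Birc5 on (98% of all 50 did), and 34 of them had Cdca8 on (88% of all 50 did). In the other direction, 14 libraries had Birc5 on with Aurkb below 10 CPM.

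Genes that act with the anaphase-promoting complex were broad. Ube2c, its ubiquitin-conjugating enzyme, was on in 46 libraries, with a median of 224 and a highest value of 2458 CPM and an SD of 2.79. Cdc20, its activator, was on in 42 and off in 5 (median 116, highest 787 CPM). Cdca3, a trigger of entry into mitosis that works through a ubiquitin ligase, was on in 46 (median 272 CPM, SD 2.21). Ube2c and Cdc20 were both on in 41 libraries and both below 10 CPM in 3.

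Kinetochore genes were split or broad. Ndc80 and Nuf2, subunits of the same microtubule-binding complex, were on in 33 and 38 libraries. They were both on in 29 and both below 10 CPM in 8, Nuf2 alone was on in 9 and Ndc80 alone in 4. Ndc80 had a median of 55.6 and a highest value of 248 CPM, and Nuf2 90.5 and 381. Nuf2 had no library between 0.23 and 3.20 on the log2 scale.

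Cenpe, the kinetochore kinesin, was on in 42 and off in 6 libraries (median 156, highest 882 CPM), and Cenpf, a large kinetochore protein, was on in 47 and off in 0 (median 123 CPM, SD 1.84). Cenpa, the centromeric histone, was on in 46 libraries and off in 4, with a median of 225 and a highest value of 923 CPM. Hjurp, the chaperone that deposits Cenpa, was off in 0, between in 10 and on in 40 libraries, and ran from 1.19 to 144 CPM with a median of 19.6. Its SD of 1.42 was the lowest of the kinetochore genes. At a threshold of 30 CPM it was on in 14 libraries, so its number on depended on that choice. No library had it off. None of its estimates above 0 was a whole number (within 1e-06), nor was any of Cenpf, Ube2c, Kif11 or Dlgap5, so their levels are uncertain where the estimation divided reads among transcripts or similar genes.

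The 14 genes of spindle motors and microtubule proteins held 5 of the 13 split genes, and the 10 kinases and their partners also held 5. Psrc1, a microtubule-binding protein, had the fewest libraries on, with 24 on, 23 off and 3 between, a median of 1.62 and a highest value of 177 CPM. Its libraries left an empty interval from 1.51 to 3.60 on the log2 scale, with 26 below and 24 above. Gtse1, which binds microtubule ends and restrains p53, was on in 25 libraries and off in 20 (median 13.3, highest 192 CPM). With on set at 30 CPM, Psrc1 was on in 14 libraries and Gtse1 in 16, and neither was then split.

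Kif2c, a microtubule-depolymerising kinesin, was on in 29 and off in 18 libraries (median 26.6, highest 252 CPM). Kif11, the motor that pushes spindle poles apart, was on in 34 and off in 13 (median 59.7, highest 399 CPM). Ckap2l, a spindle protein, was on in 38 and off in 10, with a median of 174 and a highest value of 719 CPM. Its SD of 3.30 was the largest among the spindle genes, while that of Tubb4b, a beta-tubulin, was the smallest at 1.17.

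Tubb4b was on in all 50 libraries and ran from 66.7 to 1812 CPM with a median of 615. Nusap1, a spindle microtubule stabiliser, was on in 40 and off in 9 (median 98.9, highest 783 CPM). The other broad spindle genes were on in between 38 and 47 libraries, Hmmr at the low end and Ckap5, a microtubule polymerase, at the high end. For Hmmr 8 libraries lay between 1 and 10 CPM and 4 were off. Tubb4b belongs to a family of near-identical tubulin genes, and 82.0% of its values above 0 were not whole, so its level is uncertain where reads were divided among copies.

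Of the 3 cytokinesis genes, Anln (anillin) was off in 9 libraries and on in 39 (median 78.1, highest 537 CPM). Ect2, the exchange factor that activates RhoA at the division plane, was on in 47 (median 184, SD 2.21), and Kif23, the kinesin of centralspindlin, in 45 (median 153 CPM, SD 2.24). All 39 libraries with Anln on had Ect2 on, as did 94% of all 50.

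Chromosome structure genes ranged from split to steady. Cdca2, which targets protein phosphatase 1 to chromatin, was on in 27, off in 22 and between in 1 library (median 28.6, highest 119 CPM), with no library between 0 and 2.34 on the log2 scale. Top2a, the topoisomerase that untangles sister chromatids, was off in 7 and on in 41 (median 162, highest 947 CPM), and its SD of 3.08 was the largest of this role. Mki67, the proliferation marker Ki-67, was off in 4 and on in 46 libraries (median 121 CPM, SD 2.11). Smc4, a condensin ATPase, was on in 47 (median 279 CPM), and Ncapd2, another condensin subunit, in 38 (median 38.2 CPM).

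Hmgb2, a chromatin protein of the high mobility group, was steady. It ran from 110 to 1997 CPM with a median of 1215, and its SD of 0.98 lay just inside the limit of 1. Anp32e, which removes the histone variant H2A.Z, was just outside the steady class, on in 48 libraries and off in 0 (lowest 6.38, median 122, highest 298 CPM, SD 1.05). Anp32e was 1 of 9 genes of the module above 0 in all 50 libraries.

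At the nuclear envelope, Tmpo, which encodes the lamina-associated polypeptides, had the lowest SD of the 48 genes, 0.75, and ran from 48.1 to 359 CPM with a median of 173. Lbr, the lamin B receptor, was on in 47 and off in 2 libraries (median 216, SD 2.00). Rangap1, the activator of the Ran GTPase, was on in 40, between in 7 and off in 3 (median 34.9 CPM). The steady genes of the module were therefore Tmpo, Cks1b and Hmgb2, and they were steady relative to total gene counts. Scaled to spike-in counts, which keeps differences in RNA per cell, their SDs were 1.19, 1.35 and 1.44 and none of the 48 genes was steady. On that scale 5.07% of all tested genes and 6 of 12 commonly used reference genes were steady.

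**Figure D2:**
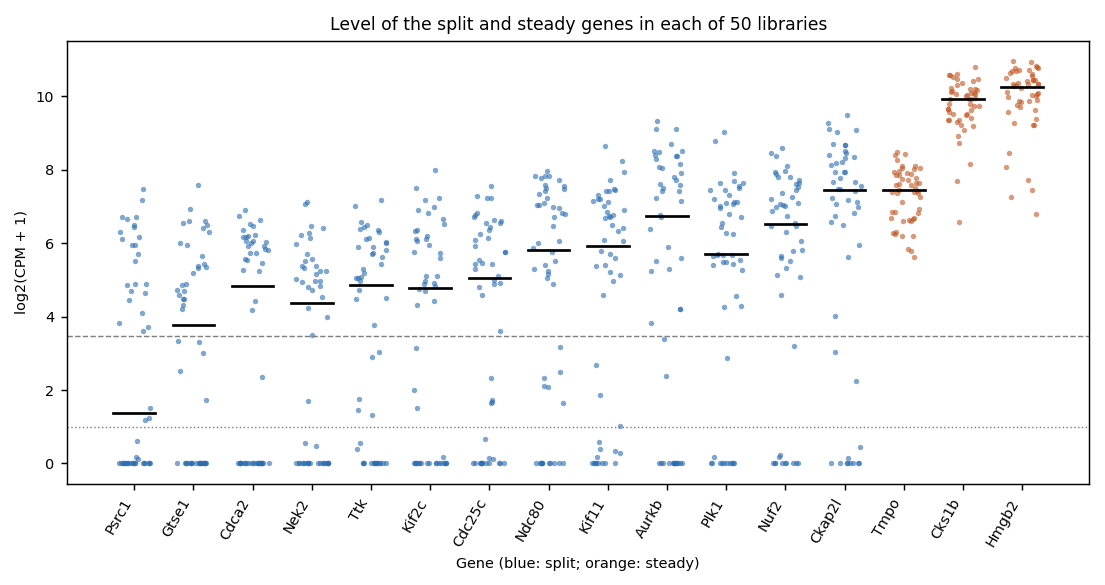
Level of the 13 split (blue) and 3 steady (orange) genes in each of the 50 libraries, as log2(CPM + 1) (y axis), with the median as a bar. The dotted line is at 1 CPM and the dashed line is at 10 CPM; the split genes leave few libraries between the lines, and Tmpo, Cks1b and Hmgb2 stay above both.

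Levels where a gene was on bear on how readily a transcript could be missed. Across the 7 genes on in the fewest libraries, Psrc1, Gtse1, Cdca2, Nek2, Ttk, Kif2c and Cdc25c, the median CPM of the libraries with the gene on lay between 38.1 (Nek2) and 67.3 (Cdc25c). For Ckap2l, Aurkb and Nuf2 it was 231, 194 and 132. Thinning each library to 2153864 gene counts left the same 13 genes split. The number of molecules captured per cell is not known, because the counts carry no molecular identifiers, and a missed molecule cannot be told apart from an absent one.

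Per library, between 10 and 48 of the 48 genes were on, with a median of 43. All 48 were on in 8 libraries, at least 40 in 32, between 26 and 39 in 11, and at most 25 in 7. The module took between 0.138% and 2.09% of gene counts, with a median of 0.913%. Of the 13 split genes, all were on in 8 libraries and none in 2, with 3 to 10 on in 21 libraries. The split genes were therefore not on or off as 1 block, and whether a gene below 10 CPM was absent or missed in a given cell cannot be told apart.

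The lowest values came from a few cells. Library 19 had 10 of the 48 genes on and library 17 had 12, and the 13 split genes were all below 10 CPM in both. They were followed by library 29 with 20, libraries 5 and 46 with 21 each, library 11 with 22 and library 60 with 25. The next, library 36, had 30 and was also the library with the fewest gene counts. In both library 19 and library 17, 8 genes were still on: Hmgb2, Birc5, Cks2, Cks1b, Tmpo, Cenpf, Anp32e and Tubb4b. Library 19 alone also had Smc4 (138 CPM) and Cenpe (11.7) on, and library 17 alone had Cdca3 (261), Ect2 (108), Aurka (79.9) and Hjurp (11.1).

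Hmgb2 stood at 151 CPM in library 19 and 110 in library 17, the latter its lowest value. Birc5 stood at 25.3 and 43.7. Mki67 was at 0.11 and 0, Top2a and Plk1 were at 0 in both, and Cdk1 was at 0 in library 19 and 8.42 in library 17. Cks1b stood at 652 and 94.5, the latter its lowest value, Tubb4b at 170 and 152, and Cenpf at 10.8 and 78.9. Genes that were still on in these cells were thus mostly below their medians as well.

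Genes of the module that were seldom off were often off in the same cells. Of the 48 genes, 21 were off in 1 to 6 libraries, which gave 82 cases of a gene off in a library. Libraries 19 and 17 held 33 of the 82, and 14 libraries held all of them. These 2 libraries had 7436 and 6935 genes above 0, against a median of 8830.5. The same share was not computed over all tested genes, so it cannot be told whether this is particular to the module. Without libraries 17 and 19, an alternative chosen after the values were seen, 9 of the 13 genes were still split and Ckap2l, Ndc80, Nuf2 and Plk1 were not. The same 3 genes were steady without them.

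**Figure D3:**
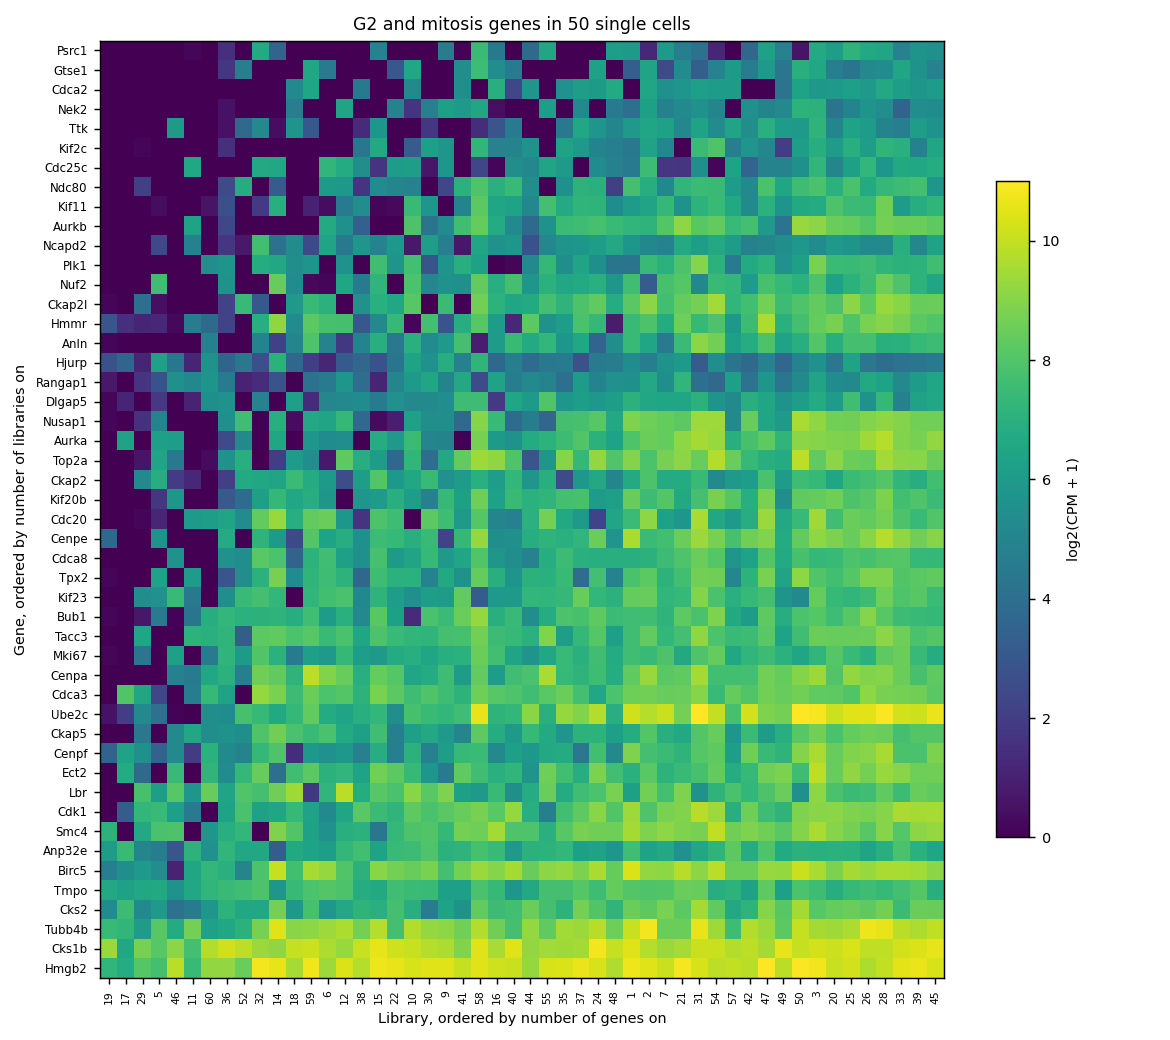
Level of each gene (rows, from fewest to most libraries on) in each of the 50 libraries (columns, numbered as in the labels and ordered by the number of genes on), coloured by log2(CPM + 1). Libraries 19 and 17 at the left are dark for most genes. The last rows, Tmpo to Hmgb2, are on in every column, though Cks2 is darker in some, with a lowest level of 4.14.

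S phase genes separated the cells that were low in the module. Of 38 measured genes of DNA replication, library 19 had 9 on and library 17 had 6, and library 11 had 14. Libraries 29, 5, 46 and 60 had 33, 33, 35 and 32 on, near the median of 34 over the 50. Thus 4 of the 7 cells with the fewest mitosis genes had most replication genes on, and 3 had few of either. Over the 50 libraries the number of module genes on had r = 0.59 and rho = 0.27 with the number of S phase genes on, and r = 0.32 without the 2 libraries farthest in S phase genes, so the first value rested largely on those libraries.

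**Figure D4:**
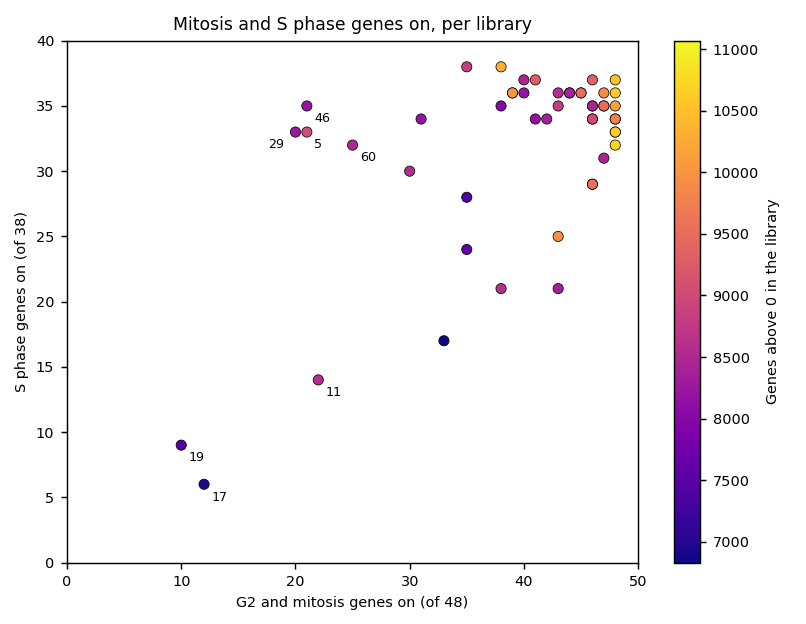
Number of the 48 genes on (x axis) and of 38 S phase genes on (y axis) in each of the 50 libraries, coloured by the number of genes above 0. Numbers mark the 7 libraries with at most 25 genes on; 29, 5, 46 and 60 lie at 32 to 35 S phase genes and 19, 17 and 11 at 6 to 14.

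The number of module genes on moved with measures of RNA content. It had r = 0.63 and rho = 0.73 with the number of genes above 0 in a library, which ran from 6832 to 11068, and r = 0.69 and rho = 0.79 with the log2 ratio of gene to spike-in counts (n = 50 cells of 1 culture, which share library and depth). With total gene counts r was -0.16, and with the sample number in the labels 0.12. Libraries 19 and 17 had 7436 and 6935 genes above 0 and 10 of the 12 reference genes on, the lowest number, which library 6 shared. A cell with more RNA per spike-in thus had more of the module on. The part of RNA content in the number on was not tested.

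Genes of the module rose and fell together. The mean Pearson r over the 1128 pairs was 0.50 across the 50 libraries, against 0.023 over all pairs of tested genes and 0.034 over those in the same range of levels. Within the 38 S phase genes the mean r was 0.46, and within 56 further G2 and mitosis genes it was 0.39. A high mean r over the 50 libraries was therefore not particular to the module. In 571 pairs r was above 0.5 and in 4 it was below 0. With the number of genes above 0 regressed out the mean of the module was 0.40, and without libraries 17 and 19 it was 0.43. These settings were not run for the other lists. On the spike-in scale, where differences in RNA per cell enter every gene, the mean of the module was 0.65.

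Ube2c had the highest mean r with the other 47 genes, 0.65, followed by Cdca8 (0.61), Cenpe (0.60) and Kif20b (0.60), a kinesin of late cytokinesis. Hjurp (0.24) and Anp32e (0.25) had the lowest, followed by Lbr (0.31) and Tmpo (0.33). The highest pair was Mki67 with Cdca8 (r = 0.89, rho = 0.70), both on in 44 libraries and both below 10 CPM in 4. Ckap5 with Cenpa (r = 0.86, rho = 0.72) and Hmgb2 with Cdca8 (0.86, 0.65), Mki67 (0.85, 0.47) and Cenpa (0.84, 0.60) followed. The smaller rho of Hmgb2 with Mki67 shows that r leaned on the few cells where both were lowest.

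The lowest pairs were Anp32e with Lbr (r = -0.064), Tmpo with Hjurp (-0.016), Anp32e with Hjurp (-0.015), Smc4 with Anp32e (-0.0040) and Anp32e with Kif23 (0.0058). Each of these pairs held Anp32e or Hjurp, which were off in no library.

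By role, the mean r within a role was 0.67 for the chromosomal passenger pair, 0.63 for the anaphase-promoting complex partners, 0.56 for spindle proteins, 0.52 for cytokinesis, 0.49 for kinetochore, 0.46 for kinases, 0.43 for chromosome structure and 0.29 for the nuclear envelope. The mean r of the same roles with the rest of the module was 0.60, 0.53, 0.51, 0.49, 0.49, 0.49, 0.47 and 0.34. Sharing a role therefore went with little added correlation. Proteins that work as partners, chosen after the values were seen, ranged widely. Tacc3 with Ckap5, which cooperate at spindle microtubules, stood at 0.84, Aurka with its activator Tpx2 at 0.64, Ndc80 with Nuf2 at 0.58, Smc4 with Ncapd2 at 0.22 and Cenpa with Hjurp at 0.19.

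**Figure D5:**
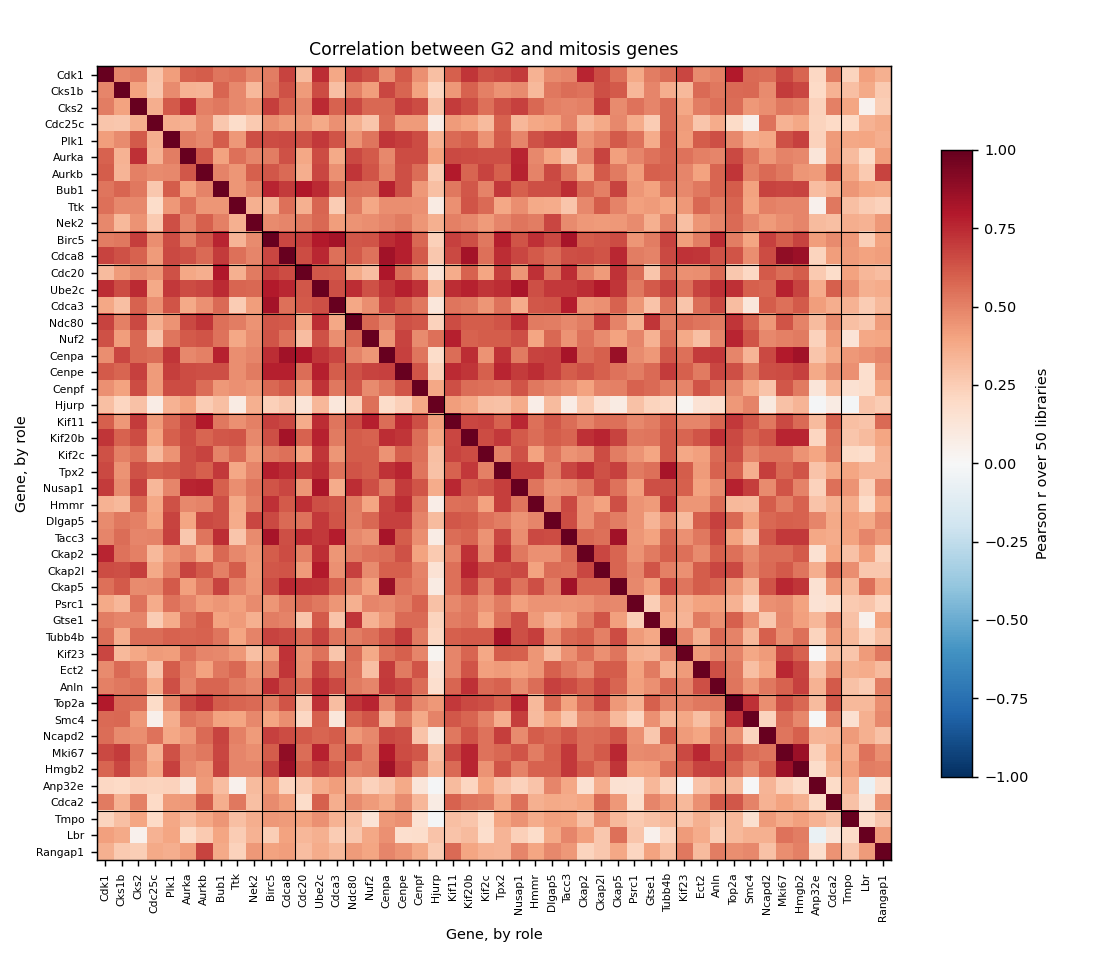
Pearson r over the 50 libraries between each pair of the 48 genes (both axes, grouped by role with black lines, red positive and blue negative). Red covers most blocks, and the pale bands are Hjurp, Anp32e, Tmpo and Lbr.

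Where a rarer gene was on, a commoner one was mostly on too, but the commoner genes were on in most libraries anyway. For the 1069 pairs with unequal numbers, the commoner gene was on in a median of 97.6% of the libraries where the rarer was on, against a median of 92.0% of all 50 libraries, and in 447 pairs it was on in every one. All 24 libraries with Psrc1 on had Cdc20, Ube2c, Mki67, Cdk1 and Birc5 on, and 23 had Plk1 on. All 28 with Nek2 on had Top2a and Cdc20 on, and 26 had Aurkb on. Of the 25 with Gtse1 on, 21 had Plk1 on and 23 Aurkb. Other pairs were less complete: of the 29 libraries with Ttk on 24 had Aurkb on (82.8%, against 70% of all 50), and of the 24 with Psrc1 on 21 had Top2a on (87.5%, against 82%). Cdc20, Ube2c, Mki67, Cdk1 and Birc5 were on in 84% to 98% of all 50 libraries, so full overlap with them differs little from their own share.

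The mean r with S phase genes differed between members of the module. The mean r of the 48 genes with the 38 S phase genes was 0.22, and for 3 of them it was higher than the mean with the module. Those 3 were Lbr (0.44 with S phase genes), Smc4 (0.43) and Hjurp (0.26), beside 0.31, 0.42 and 0.24 with the module. Lbr was at 0 in libraries 17 and 19, which had 6 and 9 S phase genes on. Smc4 was at 0 in libraries 11, 17 and 32, which had 14, 6 and 17 on. Such libraries can carry much of these r values, and no rho was computed for them. Top2a (0.47) and Cdk1 (0.43) were also high with S phase genes. Cdc25c (0.0017), Hmmr (0.013), Psrc1 (0.015), Anp32e (0.048) and Cks2 (0.059) had the lowest, beside 0.36, 0.50, 0.42, 0.25 and 0.52 with the module.

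More of the other genes of the pathway were split. Of 56 further G2 and mitosis genes measured of 60 listed, 24 were split (42.9%), 2 steady, 27 broad (48.2%) and 3 sparse, against 29.8% split and 30% broad among all tested genes. Their number on per library had r = 0.94 and rho = 0.93 with that of the module. Of these Zwint, a kinetochore protein, was steady (median 8.78, SD 0.71 on the log2 scale). The cyclins Ccna2 and Ccnb1 were on in 48 and 47 libraries (medians 8.84 and 8.46), and the checkpoint gene Mad2l1 was on in 48 (median 8.61). Kif14, a midbody kinesin, was off in 34 libraries, the separase gene Espl1 in 30, Kif18b in 26 and the Cdk1 inhibitor kinase Wee1 in 24.

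Among the S phase genes 9 were split, 3 steady, 25 broad and 1 sparse. Pcna, Slbp and Tyms were steady (SDs 0.86, 0.85 and 0.68), and Rrm2 was on in 47. Ung was off in 29 libraries, Ccne2 in 18, Ccne1 in 17 and E2f1 in 15. Of 12 reference genes 9 were steady and 0 split.

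Outside all lists, the genes whose levels were most like the mean z value of the module, over 50 libraries, were Shcbp1 (r = 0.85), C330027C09Rik (0.81), Tuba1b (0.78), Ube2s (0.77), Tubb5 (0.75), Arl6ip1 (0.75), Fam166a (0.72), Ubald2 (0.71), Reep4 (0.70) and Mastl (0.70). Mastl, the Greatwall kinase, was off in 21 and on in 27 libraries, and Shcbp1 was off in 9 and on in 39. Tuba1b and Tubb5 were on in all 50.

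The cell type of the label was checked by its markers. Of 5 epithelial markers 3 were steady, 1 broad and 1, Epcam, split. Epcam was off in 33 of the 50 libraries and on in 16. Of 4 endothelial markers all 4 were at 0 in the 50 libraries. The 5 fibroblast markers were on in none and summed to between 0 and 7.03 CPM, and 3 of the 4 immune markers measured were on in none, while Cd68 was on in 6 libraries and the sum reached 33.3 CPM.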

How the data were processed

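RNA was measured in 62 single cells of 1 culture. The deposited values are estimated counts for each gene symbol. The submitters' processing notes name kallisto and build mm9. Version, annotation and summing to genes: not given in the sources used here. Its 65 ERCC rows were left out of library sizes. Estimated counts, unrounded, became CPM after division by each library's total over 19112 gene rows, transformed as log2(CPM + 1). Thinning used rounded counts and a fixed seed. Libraries with an ERCC share of 20% or more were left out of the main values. No count model was fitted, no doublet caller was run, and no p-value was computed. Python 3.11.15, numpy 2.4.6, pandas 2.3.3 and scipy 1.17.1 were used, and the class rules were tested on simulated data. Promoter windows came from RefSeq, build GRCm38.p6, matched by symbol; no coordinate was converted.

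The members and lists were chosen with earlier results of these data known. Named were all split and steady members, the extremes of SD per role, the 5 highest and lowest pairs, and 10 genes outside the lists. Alternatives were thresholds, pseudocount, scaling, depth, single libraries, all 62 libraries, and label-number blocks of 12.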

Additional observations from a re-analysis of the deposited data

Results flagged for a closer look

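The 12 libraries in which spike-ins took at least 20% of counts lie outside the values above, and module genes were on in each of them. Library 43 had 47 of the 48 genes on and 0 off, with 389192 gene counts, 9041 genes above 0 and a spike-in share of 71.1%. The other 11 had between 3 and 22 of the 48 on. Gene counts in the 12 libraries ran from 112196 to 1133750. At these totals 10 CPM stood for fewer counts than the 21.5 to 129 given above. A gene was therefore called on there from fewer counts, and the numbers on cannot be compared directly with those above. These libraries drew attention because module genes reached 10 CPM in libraries that the description does not use. No control without cells is among the samples used here.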

How the results depend on the processing

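No paired analysis was possible because there is 1 group and no comparison between groups. Over all 62 libraries, 24 members were split, 0 were steady and the r of members on with detected genes was 0.86. Requiring each state to hold 10% or 30% of libraries in place of 20% gave 23 or 7 split members. On the spike-in scale 0 members were steady and the mean pairwise r was 0.65, with 13 split members as before. With detected genes regressed out the mean r was 0.40. Of the 54 values recomputed, 46 kept within the limits set. No r changed sign, and counts of genes could not. The limits were wide: 1.5-fold for the numbers split and steady, and the SD over libraries for the median number on. The fall from 13 to 9 split members without libraries 17 and 19 lay within them. With on set at 30 CPM 11 members were split, without Gtse1 and Psrc1, and Gtse1, Psrc1 and Hjurp were on in 16, 14 and 14 libraries in place of 25, 24 and 40, and with off set under 3 CPM 16 were. The numbers split and steady and the median number on per library were the same under median-of-ratios scaling and thinning, while single members' numbers on could shift. The background share of split genes was 25.7% and 29.4% with genes above 0 in at least 3 and 25 libraries. Presence at low level is limited by capture, which these counts do not show.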
